A study of Oryza sativa with 4 samples.

Results

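The cytokinin genes of the rice array were examined in leaves of plants that overexpress OsBIERF3 and in wild-type leaves. Members were the genes whose symbol or synonym in the gene table belongs to the RR (response regulator), CKX (cytokinin oxidase), LOG or LOGL (cytokinin activation), IPT (isopentenyltransferase), HK (histidine kinase), AHP or PHP (phosphotransfer and pseudo-phosphotransfer) series. Of 45 genes that matched, 32 had a probe set, out of 17905 named genes on the array. No gene carried an IPT name, so the first step of cytokinin synthesis is not described here. Each gene was read by its brightest probe set on average. The plants were OsBIERF3-OE (2 arrays) and WT (2 arrays). All were 3-week-old rice (Oryza sativa) kept without stress treatment, and 1 leaf RNA sample was hybridized to each 1-colour Affymetrix array. OsBIERF3 itself codes for an ethylene-responsive factor (ERF) protein that regulates transcription. The promoter of the transgene, the number of independent lines and the cultivar are not given in the sources used here, and the transgene's own transcript level was not analysed here. The replicates are called biological in the labels, with no word on whether each was a separate plant or a pool. Whether the spread behind each p-value is that between single plants or between pools is therefore not known.

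Cytokinins are adenine-derived hormones that promote cell division and delay leaf senescence. In plants, LOG enzymes convert inactive cytokinin nucleotides to the active bases, and CKX enzymes degrade them. Histidine kinase receptors at membranes bind the hormone and pass a phosphate through phosphotransfer proteins (AHP) to type-B response regulators, the transcription factors of the pathway. Type-A response regulators are direct targets of the type-B factors and dampen the signal, so their transcripts are widely read as a sign of cytokinin response.

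Of the 29 cytokinin genes tested, 4 were called higher in OsBIERF3-OE leaves, 3 were called lower and 22 did not pass limma's adjusted p of 0.05. Of the 4 called higher, RR5, a type-A gene, had no array above background and passed the brightness filter only through its OsBIERF3-OE arrays, which leaves 3 that rose on a measurable signal. The genes that fell were LOG and LOGL5, which encode activating enzymes, and HK3, which encodes a receptor. The 3 that rose on a measurable signal were PHP5 and AHP1, of the phosphotransfer genes, and RR42, a type-C response regulator gene. Over all genes tested, 31.8% passed, 17.2% higher and 14.5% lower. Of the cytokinin genes 24.1% passed, with RR5 counted, so they were not called more often than other genes. The median log2 change of the 29 genes was -0.25, beside -0.04 over all genes tested. The arrays of the genotypes did not overlap for 21 of the 29 genes (72.4%), against 73.8% of all genes tested. The remaining 3 genes, CKX1, RR33 and RR41, were too dim to be tested, with no array above a signal of 8.11.

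**Figure D1:**
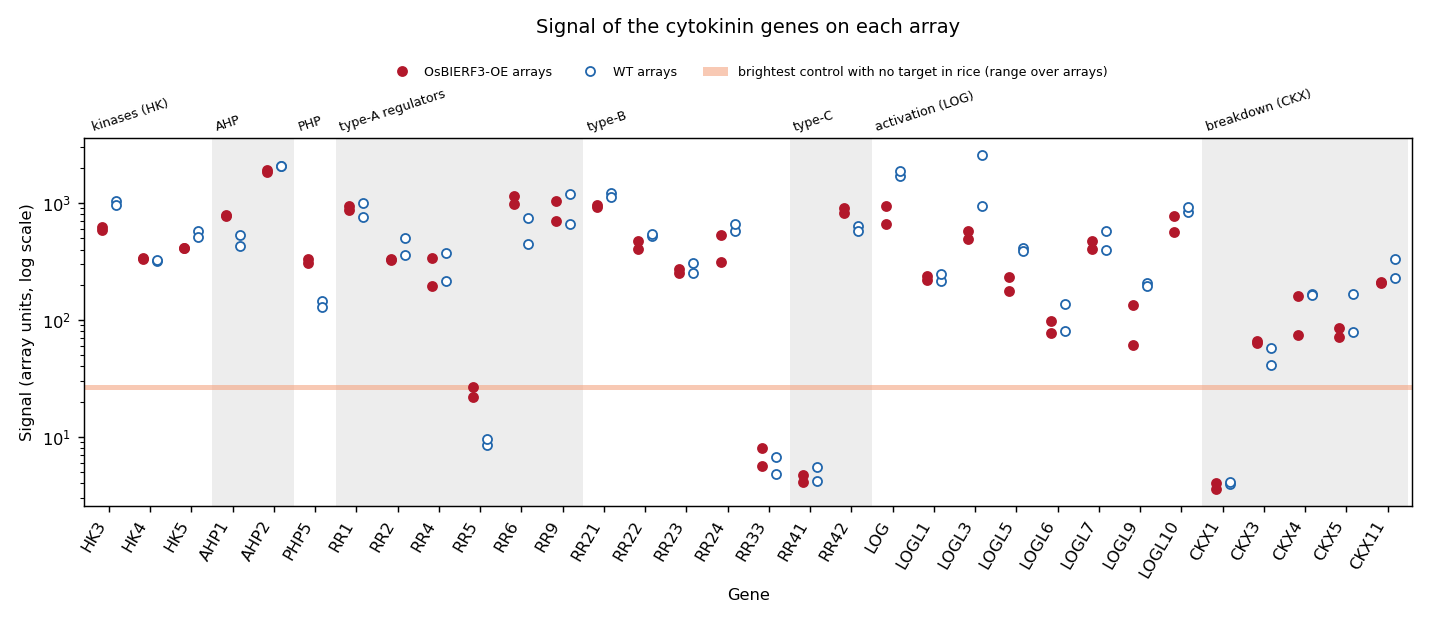
Signal of the 32 cytokinin genes on each array (vertical axis, array units on a log scale), grouped by role along the horizontal axis, with OsBIERF3-OE arrays as filled red points left of WT arrays as open blue points. The orange band is the background level (25.1 to 28.0 over the arrays), set by controls that match nothing in rice, and CKX1, RR5, RR33 and RR41 lie at or below it on all 4 arrays.

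The arrays had nearly the same overall brightness, with medians of 19.7 to 20.3. The background level of an array was its brightest signal among 33 controls that match nothing in rice. The leaf genes CAB2R and RBCS, of light harvesting and carbon fixation, were among the bright signals on every array, at 11154 or above. Of the 4 leaf mesophyll markers with a probe set, 1 fell: PSAG, a photosystem I subunit gene, had 291 and 376 in OsBIERF3-OE leaves, against 743 and 749 in WT leaves (log2 change -1.17, limma adjusted p = 0.00889). GLO1, of glycolate oxidase, did not pass (log2 change -0.60, limma adjusted p = 0.0633), and the summed signal of the 4 was 33803 to 34608 on OsBIERF3-OE arrays and 36845 to 37105 on WT arrays. Markers of dividing cells moved with the genotype: 5 of 5 (PCNA, MCM2, MCM3, CYCB1-1 and CDKB2-1) rose, with a summed signal of 3954 to 4130 on OsBIERF3-OE arrays and 331 to 342 on WT arrays. Of 3 shoot meristem markers with a probe set, OSH1 and OSH71 were at background on all arrays and FON1 did not pass. None of 3 senescence markers passed by limma (2 had an unadjusted p under 0.05), with a summed signal of 1767 to 2231 on OsBIERF3-OE arrays and 2732 to 3303 on WT arrays. Of 4 root markers, Lsi2 and PT11 were at background, Lsi1 did not pass and NRAMP5 rose. The ratio of 3′ to 5′ signal, a sign of RNA or cRNA integrity, was 7.37 and 7.25 for GAPDH on OsBIERF3-OE arrays and 12.8 and 11.2 on WT arrays, and the actin pairs differed in the same direction by 0.55 to 0.85 on the log2 scale. For cyclophilin the arrays overlapped, at ratios of 1.82 and 1.81 on OsBIERF3-OE arrays and 1.71 and 1.82 on WT arrays, and for ubiquitin the log2 difference was -0.27. The part of dividing cells, of the lower PSAG signal and of this ratio in the cytokinin gene differences was not tested. In whole leaves, fewer cells of a type and less RNA per cell cannot be told apart. Scaling the arrays on the hybridization controls moved the median log2 change of all genes to 0.24, so changes are also given on that scale where the call or the sign depends on it.

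Activation genes held 2 of the 3 cytokinin calls lower in OsBIERF3-OE. Of 8 LOG-family genes measured, 2 fell (25.0%, beside 14.5% of all genes tested), 0 rose and 6 did not pass. The arrays of the genotypes did not overlap for 5 of the 8, against 73.8% of all genes tested. The log2 changes of all 8 were below 0, with a median of -0.69, beside -0.04 over all genes tested. Whether the family differs from other genes was not tested. After scaling on the hybridization controls 5 of the 8 were below 0, and LOGL1, LOGL6 and LOGL7 were above it. LOG (LOC4324445), named for the lonely guy mutant of rice, in which shoot meristems are not maintained, had signals of 945 and 657 in OsBIERF3-OE leaves, against 1700.3 and 1869 in WT leaves. Both OsBIERF3-OE arrays lay well below both WT arrays. The log2 change was -1.18 ± 0.19 (SE, n = 2 each), or 2.26-fold higher in WT, with a limma adjusted p of 0.0149. Without WT replicate 2 it was -1.11 and did not pass (limma adjusted p = 0.0683). A dimmer probe set assigned to LOG was at background, with at most 6.94 on any array.

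LOGL5 (LOC4334848), a LOG-like gene, also fell. It had 176 and 232 in OsBIERF3-OE leaves, against 409 and 386 in WT leaves, so the groups were apart and the WT arrays close together. The log2 change was -0.98 ± 0.17 (SE, n = 2 each; limma adjusted p = 0.0175). Leaving out WT replicate 1 or WT replicate 2 ended the call, with limma adjusted p of 0.0708 and 0.0676 and log2 changes of -0.93 and -1.02.

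LOGL3 (LOC4331344) had the widest gap of the family in the fit, but the size of the gap rested on WT array 1. Its signals were 494 and 577 in OsBIERF3-OE leaves, against 2592 and 939.8 in WT leaves. The WT arrays differed from each other 2.76-fold, and the log2 change of -1.55 ± 0.47 (SE, n = 2 each) did not pass (limma adjusted p = 0.0674). It was -2.28 without WT replicate 2, where it passed (limma adjusted p = 0.00538), and -0.82 without WT replicate 1, where it did not (0.0524). LOGL9 (LOC4347769) had 61.6 and 136 in OsBIERF3-OE leaves, against 205 and 194 in WT leaves, and here the OsBIERF3-OE arrays were the uneven ones. Its log2 change of -1.13 did not pass (limma adjusted p = 0.0857), and it was -1.70 without OsBIERF3-OE replicate 2, where it passed (0.011), and -0.56 without OsBIERF3-OE replicate 1.

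The other 4 LOG-like genes were closer between the genotypes. LOGL10 had 568 and 776 in OsBIERF3-OE leaves, against 831 and 929.8 in WT leaves, a log2 change of -0.40 with a 95% interval from -0.86 to 0.05. LOGL1, LOGL6 and LOGL7 had overlapping groups and log2 changes of -0.02, -0.25 and -0.14. LOGL6 is known in rice as a gene of awn length. For LOGL1, read by a probe set of a type that can cross-hybridize, the interval ran from -0.37 to 0.33, so any change within that range remains possible.

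Breakdown genes did not pass in either direction. Of 4 CKX genes tested, 0 rose and 0 fell by limma, and none had an unadjusted p under 0.05. CKX11 (LOC4345764), which in rice is known to act in leaf senescence and grain number, had 206 and 210.4 in OsBIERF3-OE leaves, against 329 and 228 in WT leaves (log2 change -0.40, 95% interval -0.91 to 0.11). CKX4, known in rice for effects on crown roots, had 161 and 74.9 in OsBIERF3-OE leaves, against 168 and 162 in WT leaves. Only OsBIERF3-OE array 2 stood apart, and the log2 change was -1.14 without OsBIERF3-OE replicate 1, where it passed (limma adjusted p = 0.0209), and -0.04 without OsBIERF3-OE replicate 2. CKX5 had 71.1 and 85.9 in OsBIERF3-OE leaves, against 165 and 78.9 in WT leaves, and the groups overlapped. CKX3 was the CKX gene with a positive change, at 66.1 and 63.4 in OsBIERF3-OE leaves, against 40.8 and 57.5 in WT leaves (log2 change 0.42, limma adjusted p = 0.202). Scaled on the hybridization controls, the change was 0.71 and passed (limma adjusted p = 0.0493). CKX2 and CKX9 were matched by name but had no named probe set, and CKX1 was at background on all arrays.

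**Figure D2:**
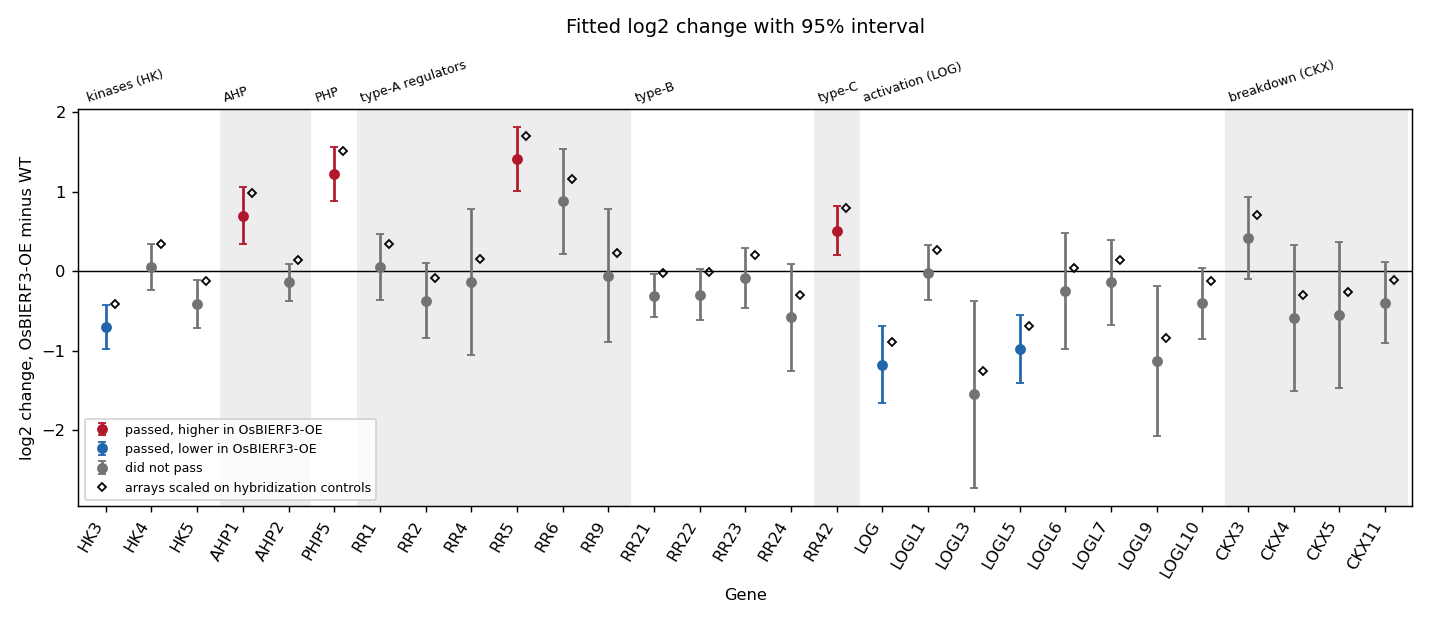
Fitted log2 change (OsBIERF3-OE minus WT, vertical axis) of the 29 cytokinin genes tested, with 95% intervals from limma, in red where a gene passed and was higher in OsBIERF3-OE, blue where it passed and was lower, and grey where it did not pass. Open diamonds give the change after scaling on the hybridization controls, where HK3 (-0.42) and LOG (-0.89) stay below 0 and LOGL1, LOGL6 and LOGL7 lie above it.

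Of the 3 histidine kinase genes measured, all known cytokinin receptors in rice, 1 fell and 2 did not pass. HK3 (LOC9271913) had 629 and 592 in OsBIERF3-OE leaves, against 1030.1 and 961 in WT leaves. Arrays of a genotype lay within 1.07-fold of each other and the genotypes were 1.63-fold apart. The log2 change was -0.70 ± 0.11 (SE, n = 2 each; limma adjusted p = 0.0129). The call was lost, with limma adjusted p of 0.0539 to 0.0636, when OsBIERF3-OE replicate 2, WT replicate 1 or WT replicate 2 was left out, at log2 changes of -0.66, -0.65 and -0.75. After scaling on the hybridization controls the log2 change was -0.42 and did not pass (0.0519).

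HK5 (LOC4348447) had 409 and 412 in OsBIERF3-OE leaves, against 581 and 515 in WT leaves. The groups were apart, and the log2 change of -0.41 ± 0.12 (SE, n = 2 each) did not pass (limma adjusted p = 0.0605). A dimmer probe set of HK5 gave a log2 change of -0.49, which did not pass (limma adjusted p = 0.0796). HK4 (LOC4333916) had 337 and 332 in OsBIERF3-OE leaves, against 322 and 323 in WT leaves. The 95% interval of its log2 change, -0.23 to 0.34, bounds the change of HK4 on the deposited scale. Whether HK3 and HK4 differ in their response was not tested.

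Among the phosphotransfer genes, PHP5 and AHP1 rose and AHP2 did not pass. PHP5 (LOC107278650) belongs to the pseudo-phosphotransfer proteins, which lack the histidine that carries the phosphate. A protein of this kind, AHP6, is known in Arabidopsis as an inhibitor of cytokinin signalling. PHP5 had 304 and 332 in OsBIERF3-OE leaves, against 144 and 129 in WT leaves. Both OsBIERF3-OE arrays were well above both WT arrays, and the rise was 2.33-fold (log2 change 1.22 ± 0.14, SE, n = 2 each; limma adjusted p = 0.00559). It passed in every one of the 14 alternative settings, which include leaving out each array in turn (log2 changes of 1.14 to 1.31). PHP5 had 1 named probe set, so the setting with second probe sets repeats the main fit for it.

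AHP1 (LOC4346300), which carries the phosphate to the response regulators, had 795 and 768 in OsBIERF3-OE leaves, against 534 and 432 in WT leaves. The groups were apart, and the rise was 1.63-fold (log2 change 0.70 ± 0.14, SE, n = 2 each; limma adjusted p = 0.0245). That probe set is of a type that can match several transcripts, as are the brightest ones of HK5 and RR4. A dimmer probe set of AHP1 had 62.6 and 58.7 in OsBIERF3-OE leaves, against 49.8 and 36.2 in WT leaves, with a log2 change of 0.52 that did not pass (limma adjusted p = 0.123). The call was also lost without OsBIERF3-OE replicate 1 (0.0719), OsBIERF3-OE replicate 2 (0.0762) or WT replicate 2 (0.0996). AHP2 (LOC4347886) had 1858 and 1930.3 in OsBIERF3-OE leaves, against 2084 and 2089 in WT leaves. Its log2 change was -0.14 on the deposited scale and 0.15 after scaling on the hybridization controls, and neither passed.

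The type-A response regulator genes gave no common direction. Of 6 measured, the 5 above background did not pass and RR5, below it, was called higher. With RR5 counted, 3 changes were above and 3 below 0 as deposited, and 5 were above 0 after scaling on the hybridization controls. RR5 (LOC4336439) had 26.7 and 22.0 in OsBIERF3-OE leaves, against 8.58 and 9.64 in WT leaves. No array was above the background controls, and both WT signals were below 12.3, the lowest mean signal tested, so RR5 entered the test only through its OsBIERF3-OE arrays. Its call (limma adjusted p = 0.00579) is therefore not read as a measured difference, and no fold is given. RR5 had no value in the settings that removed or raised dim probe sets.

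RR6 (LOC4337372) was the type-A gene with the clearest separation among those above background. It had 1138 and 979.7 in OsBIERF3-OE leaves, against 444 and 744 in WT leaves. Both OsBIERF3-OE arrays exceeded both WT arrays, but the WT arrays differed 1.68-fold from each other. The log2 change of 0.88 ± 0.26 (SE, n = 2 each) did not pass (limma adjusted p = 0.064). It passed without WT replicate 2, at 1.25 (0.0225), and also after scaling on the hybridization controls, at 1.16 (0.0235), and was 0.51 without WT replicate 1.

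The other type-A genes differed more between arrays of 1 genotype than between genotypes. RR9 (LOC4349747) had 1043 and 703 in OsBIERF3-OE leaves, against 662 and 1196 in WT leaves, so the highest and the lowest array were both WT. RR4 (LOC4325747) had 341 and 197 in OsBIERF3-OE leaves, against 216 and 373 in WT leaves, the same order of the arrays within each genotype. The fold between the WT arrays was 1.81 for RR9 and 1.73 for RR4, beside a median of 1.12 and a 95th percentile of 1.60 over all genes tested. RR1 and RR2 had smaller gaps, at 1.34-fold and 1.40-fold between the WT arrays. RR9 and RR10 are close copies in rice, RR10 had no probe set named for it, and the RR9 signal may hold both.

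Among the 5 type-A genes above background, WT array 2 was above WT array 1 for all 5, beside 43.5% of all genes tested. OsBIERF3-OE array 1 was above array 2 for 4 of the 5, RR1 being the exception, beside 50.9% of all genes tested. The log2 change of RR9 was -0.06 with a 95% interval from -0.89 to 0.78, and that of RR4 -0.13 from -1.05 to 0.79. Both changed sign when OsBIERF3-OE replicate 2 or WT replicate 2 was left out, to 0.23 and 0.37 for RR9 and to 0.27 and 0.26 for RR4. Any change of RR4 and RR9 inside these wide intervals remains possible. RR1 was tighter, at 877 and 934 in OsBIERF3-OE leaves, against 754 and 1009 in WT leaves (log2 change 0.05, 95% interval -0.37 to 0.47). RR2 had 329 and 325 in OsBIERF3-OE leaves, against 358 and 501 in WT leaves (log2 change -0.37, limma adjusted p = 0.208).

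**Figure D3:**
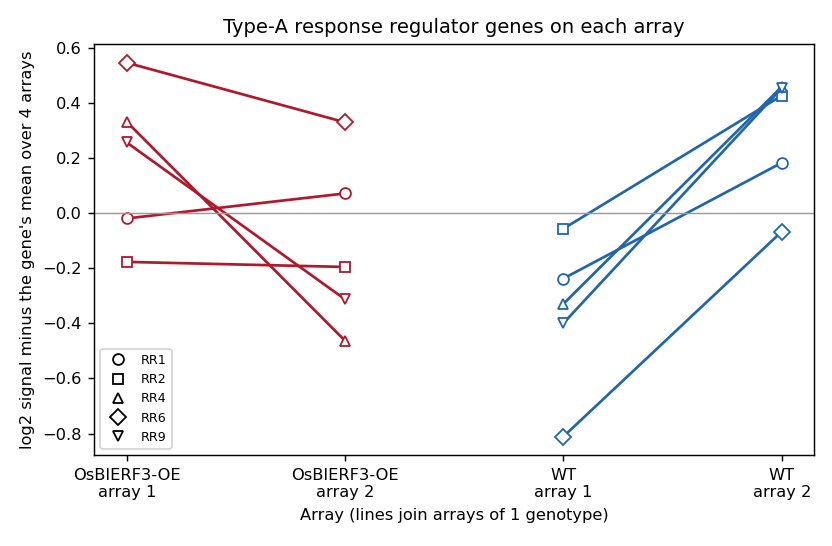
Log2 signal of the 5 type-A response regulator genes above background, minus each gene's mean over the 4 arrays (vertical axis), on the OsBIERF3-OE arrays (red, left) and the WT arrays (blue, right), with lines joining arrays of 1 genotype. For all 5 genes WT array 2 lies above WT array 1, and of the 5 only RR6 has both OsBIERF3-OE arrays above both WT arrays.

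None of the 4 type-B genes tested passed by limma (1, RR21, had an unadjusted p under 0.05), and all 4 had negative log2 changes as deposited, between -0.58 and -0.08. After scaling on the hybridization controls their median was -0.01 and RR23 was above 0. RR21 (LOC4332111) had 932 and 953 in OsBIERF3-OE leaves, against 1223 and 1115 in WT leaves. The groups were apart by a small step, a log2 change of -0.31 ± 0.11 (SE, n = 2 each; limma adjusted p = 0.0932). RR22, known in rice for a salt tolerance mutant, had 469 and 401 in OsBIERF3-OE leaves, against 521 and 542 in WT leaves (limma adjusted p = 0.16). RR24 had 537 and 315 in OsBIERF3-OE leaves, against 572 and 662 in WT leaves. Its low array was OsBIERF3-OE array 2, and the log2 change was -0.97 without OsBIERF3-OE replicate 1, where it passed (limma adjusted p = 0.026), and -0.20 without OsBIERF3-OE replicate 2. RR23 had overlapping groups, at 251 and 273 in OsBIERF3-OE leaves, against 306 and 251 in WT leaves.

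RR42 (LOC4335184), of the type-C response regulators, rose. In Arabidopsis, transcripts of type-C regulators are not induced by cytokinin as those of type A are. RR42 had 814 and 906 in OsBIERF3-OE leaves, against 633 and 574 in WT leaves, and the groups were apart. The rise was 1.43-fold (log2 change 0.51 ± 0.12, SE, n = 2 each; limma adjusted p = 0.0364). It did not pass whichever array was left out, with limma adjusted p of 0.0625 to 0.163 and log2 changes of 0.43 to 0.59.

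**Figure D4:**
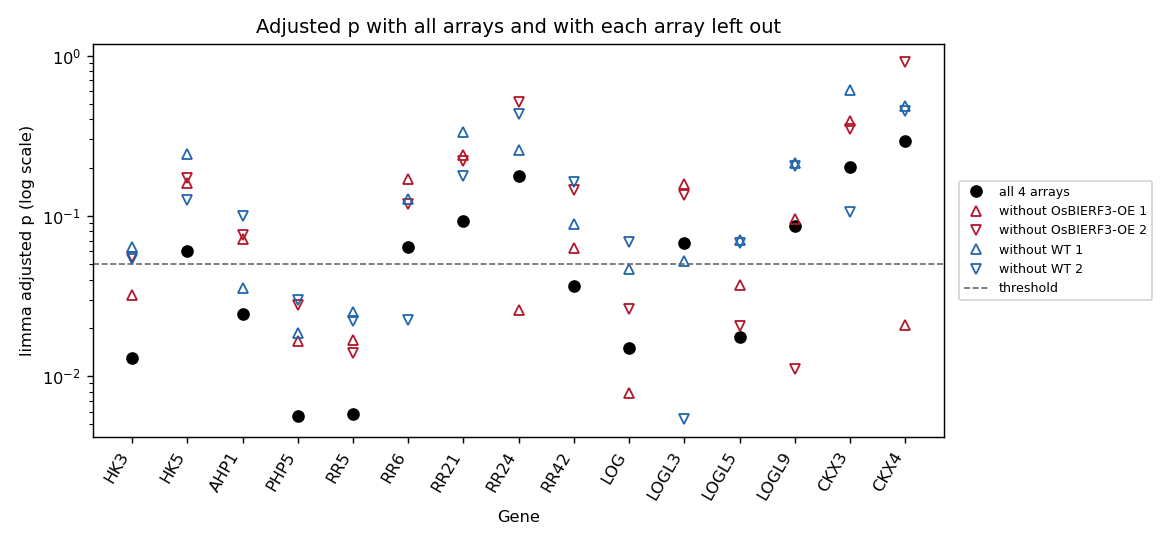
Limma adjusted p (vertical axis, log scale) of the 15 cytokinin genes that passed under at least 1 setting, with all 4 arrays (black) and with each array left out (red, an OsBIERF3-OE array; blue, a WT array); the dashed line is 0.05. PHP5 lies below the line at every point, as does RR5, whose signals are below background on all arrays, and RR42 lies below it only with all 4 arrays.

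Of the other cytokinin pathway genes searched by name, only KNOX homeobox genes were found, whose proteins are known in rice to switch on cytokinin synthesis in the shoot meristem. Of 4 with a probe set, 1 was bright enough to be tested and it did not pass. OSH43 had 26.1 and 25.6 in OsBIERF3-OE leaves, against 20.3 and 19.3 in WT leaves, below the background controls on all arrays. OSH1, OSH6 and OSH71 were at background on all arrays, with no signal above 10.8.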

How the data were processed

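The authors deposited 1 linear signal intensity for each probe set and array. The submitters' processing notes name MAS5 and no other tool. How the authors corrected background and normalized is not given in the sources used here, and the arrays' sorted log2 values differed by at most 0.0803 from their mean. Of 57381 probe sets, 123 were controls and not tested. The 60% of the rest that were brightest over all 4 arrays (34355) were put on the log2 scale, with a lower limit of 1, and fitted with limma 3.58.1 in R 4.3.3 (lmFit, eBayes with trend) on genotype alone, with Benjamini-Hochberg adjustment over all of them. Log2 changes are OsBIERF3-OE minus WT, with 2 residual and 5.28 total degrees of freedom. The fit was also run on simulated arrays with independent noise and few changed probe sets. That setting is unlike these data, so the run gives no error rate for the calls here. With 2 arrays per genotype, their number limits the precision.

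Groups came from sample titles. Probe sets with 1 gene (22436) were named through the platform table and matched by gene ID to RefSeq assembly GCF_034140825.1 in Python 3.11.15 with pandas 2.3.3, and those with several genes (95) or none (34727) are unnamed here. Members and lists were chosen with earlier results of these data known. Genes named by rule were members past the adjusted p and up to 2 others per role by brightness; the remaining members and OSH43 were named after their values were seen. The background controls were chosen likewise. Alternatives changed the filter, offset, scaling, probe set, variance prior, block and replicates.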

Additional observations from a re-analysis of the deposited data

How the results depend on the processing

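As reported, 4 cytokinin genes were higher and 3 lower. The numbers higher and lower were 2 and 2 with replicate number as a block, where 2608 of all genes passed against 5074 as reported. They were 4 and 5 with signals raised to background, and ran from 2 to 3 and from 1 to 5 with a replicate left out, where 2017 to 3696 of all genes passed. Deviations of same-numbered arrays were negatively correlated (r = -0.25 over probe sets). What arrays of the 2 genotypes share beyond a number is not given in the labels and was not tested. With numbers crossed between genotypes, an alternative added after seeing the data, 5 were higher and 8 lower, and 7734 of all genes passed. The median log2 change of the members, -0.25 as reported, was -0.14 with no filter and with second probe sets, -0.22 with an offset of 16, -0.27 with quantile normalization and with the upper 40%, -0.34 to -0.17 with a replicate left out, and 0.036 with arrays scaled on hybridization controls. Under that scaling 6 members were higher and 2 lower, 1 other pathway gene, OSH43, passed, the calls over all genes were 28.9% higher and 5.41% lower, against 17.2% and 14.5%, and the sign turned for LOGL1 (0.27), LOGL6 (0.036), LOGL7 (0.15), RR4 (0.16), RR9 (0.23), RR23 (0.21) and AHP2 (0.15). With a replicate left out, log2 changes crossed 0 for LOGL1 (-0.12 to 0.080), LOGL6 (-0.63 to 0.13), LOGL7 (-0.42 to 0.14), RR1 (-0.16 to 0.26), RR4 (-0.53 to 0.27), RR9 (-0.48 to 0.37) and RR23 (-0.22 to 0.061). PHP5 passed in each setting. The cause was not tested. Signals near background limit RR5 and OSH43.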
